A study of Homo sapiens with 6 samples.

Results

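A set of 30 genes of purine and pyrimidine nucleotide synthesis was followed in MCF10DCIS.com cells in which WDR5 had been silenced. They were chosen by name, with earlier results of these data known, and all 30 had a row among the 26334 genes of the count table. MCF10DCIS.com (hereafter MCF10DCIS) is a human breast cancer cell line, and WDR5 is a WD40 repeat protein of the complexes that methylate lysine 4 of histone H3. Both groups carried a pRSI vector in which the U6 promoter drives a hairpin and the UbiC promoter drives TagRFP-2A-Puro. The hairpin targeted luciferase, a neutral control, in the shLuc cells and WDR5 in the shWDR5 cells. Both groups were grown in the same DMEM/F12 medium with horse serum and were selected with 3 µg/ml puromycin. Each group had 3 RNA-seq libraries of poly-A RNA. The labels do not say whether these came from separate infections, so p-values measure the spread between these libraries, which may be technical. The methods describe WDR5 silencing with a pair of hairpins used as a pool.

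Nucleotides are built either de novo, on a ribose phosphate carrier called PRPP, or by salvage of free bases and nucleosides. The purine ring is assembled on PRPP up to IMP, which then branches to AMP and GMP, whereas the pyrimidine ring is assembled first and joined to PRPP as UMP, the source of CTP. Ribonucleotide reductase turns ribonucleotides into the deoxynucleotides used for DNA synthesis, and dividing cells make most of that enzyme and of thymidylate synthase around S phase.

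The libraries held between 38218108 and 57640167 counts, and the members held between 401 and 14400 counts each in a library. The median coefficient of variation of a member within a group was 5.28%. WDR5 itself measured 52.6, 48.5 and 51.3 normalized CPM (counts scaled to a common library size with edgeR's TMM factors) in the shLuc libraries and 23.4, 24.4 and 20.8 in the shWDR5 libraries (log2 fold change -1.15 ± 0.07 (SE), adjusted p = 8.67e-07; edgeR quasi-likelihood test with Benjamini-Hochberg adjustment over 16117 genes, used throughout). The targeted gene was therefore low in each library labelled shWDR5. Replicates of a group correlated at 0.995 to 0.997 over genes (log2 CPM), with replicate 1 of each group the farthest from the others, and the 10 most abundant genes took 5.74 to 6.09% of the counts in shLuc and 7.67 to 8.16% in shWDR5. Keratins and EPCAM marked all 6 libraries as epithelial. The summed level of the 8 epithelial markers was 3718 to 3994 RPKM in shLuc and 5042 to 5674 RPKM in shWDR5. RPKM is CPM per kilobase of exon, computed here. In shWDR5 4 of these markers were higher (26.6% of all genes), namely KRT5, KRT14, KRT17 and TP63. The 2 that were lower (29.9% of all genes) were CDH1 (log2 fold change -1.03 ± 0.05 (SE), adjusted p = 2.64e-07) and EPCAM (log2 fold change -0.33 ± 0.07 (SE), adjusted p = 0.00317). KRT8 and KRT18 did not pass the test. Of 8 markers of immune, endothelial and fibroblast cells the summed level was 10.8 to 12.3 RPKM in shLuc and 8.93 to 10.5 RPKM in shWDR5, CD3E was at 0 in all 6 and PTPRC and DCN were at most 0.0204 RPKM. Most of that sum came from CD68 (5.55 to 7.03 RPKM over the 6 libraries, adjusted p = 0.426), COL1A1 (2.41 to 3.83 RPKM) and PECAM1 (0.853 to 1.50 RPKM). COL1A1 (log2 fold change -0.50 ± 0.08 (SE), adjusted p = 0.000438) and PECAM1 (log2 fold change -0.71 ± 0.09 (SE), adjusted p = 5.65e-05) were lower in shWDR5, and their part in the results was not tested.

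Most nucleotide synthesis genes were lower in shWDR5 cells. Of the 30 members, 19 fell and 2 rose at an adjusted p below 0.05, and 9 did not pass the test. Among all genes tested 29.9% fell and 26.6% rose, against 63.3% and 6.67% of the members. As the members were chosen with earlier results of these data known, these shares are a description only. The median log2 fold change was -0.28 over the members and -0.01 over all genes tested. The largest falls were those of RRM1, RRM2, CTPS2 and TK1, and the 2 genes that rose were IMPDH1 and APRT. With a larger change also required (an absolute log2 fold change of at least 0.6 and a level above 0.5 RPKM), 6 members were lower (10.5% of all genes) and 2 were higher (7.9% of all genes). The 6 were RRM1, RRM2, CTPS2, TK1, PRPS1 and GMPS, and CTPS1 lay just outside at -0.59. The 2 groups of libraries did not overlap for 19 members that were lower (32.4% of all genes) and for 3 that were higher (29.9% of all genes). Together the 30 genes took 0.300 to 0.308% of the counts of a shLuc library and 0.237 to 0.248% of those of a shWDR5 library. In bulk RNA, fewer cells in a given state and less RNA per cell cannot be told apart.

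**Figure D1:**
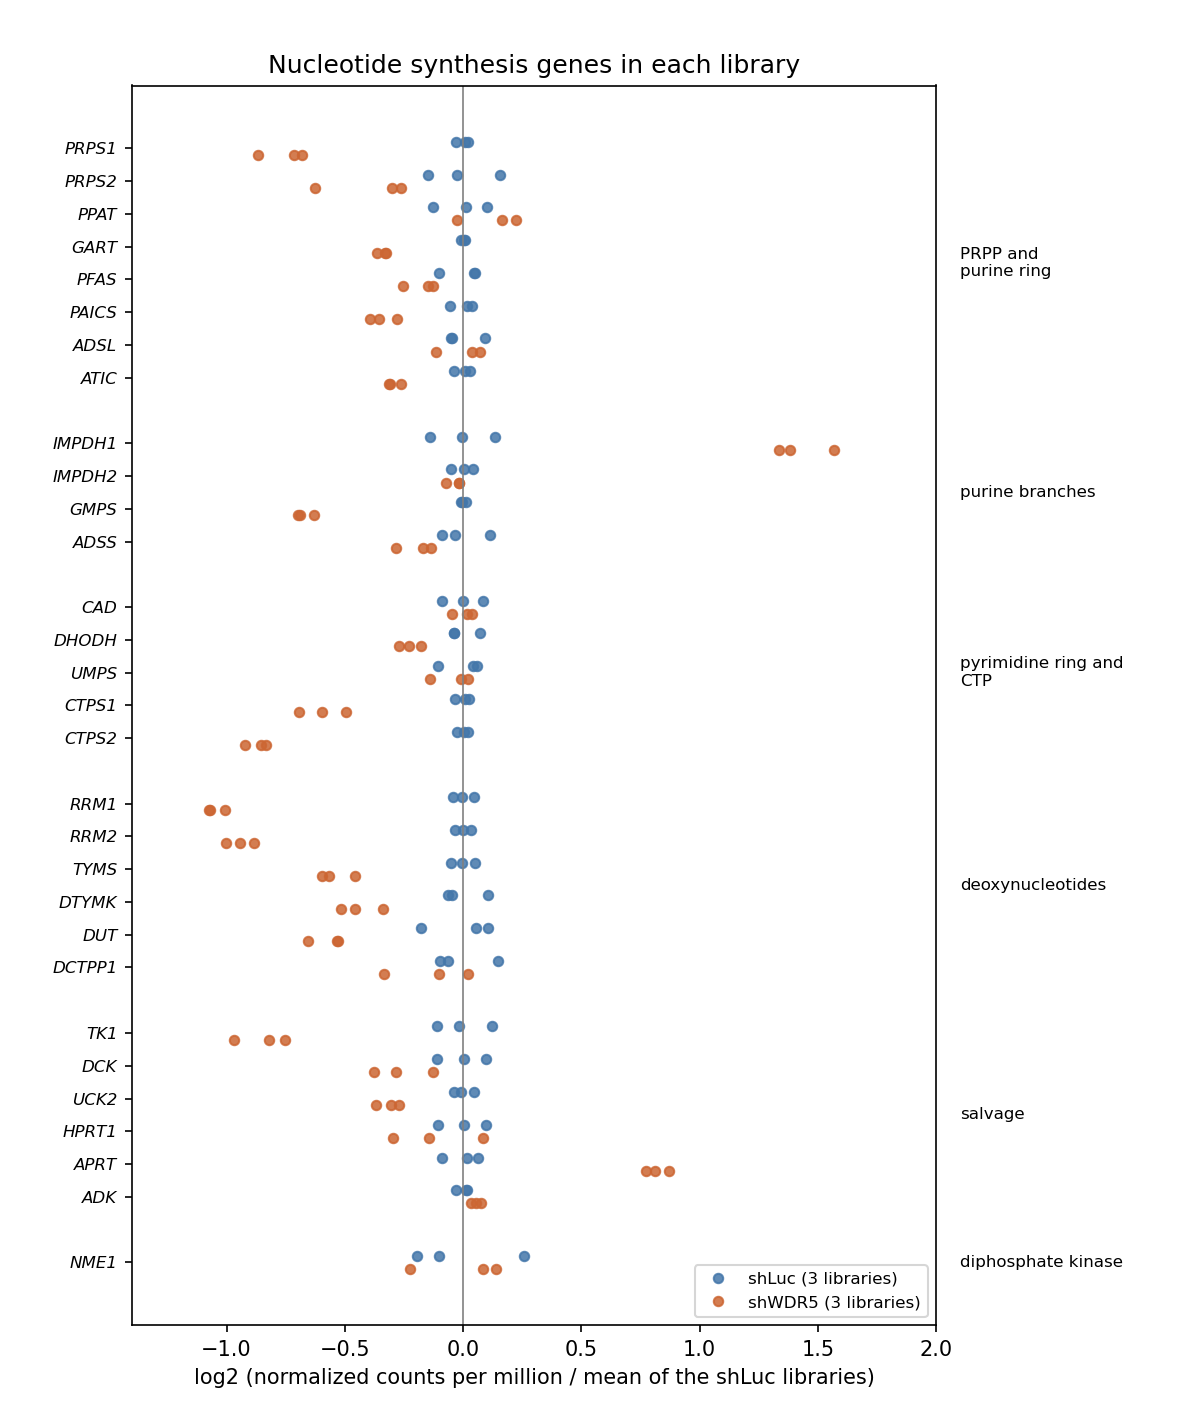
Normalized CPM of each of the 30 genes in each library, as log2 of the value over the mean of the 3 shLuc libraries (x axis), with 1 point per library and genes grouped by role. The shWDR5 points lie left of the shLuc points for 19 genes and far to the right for IMPDH1 and APRT.

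**Figure D2:**
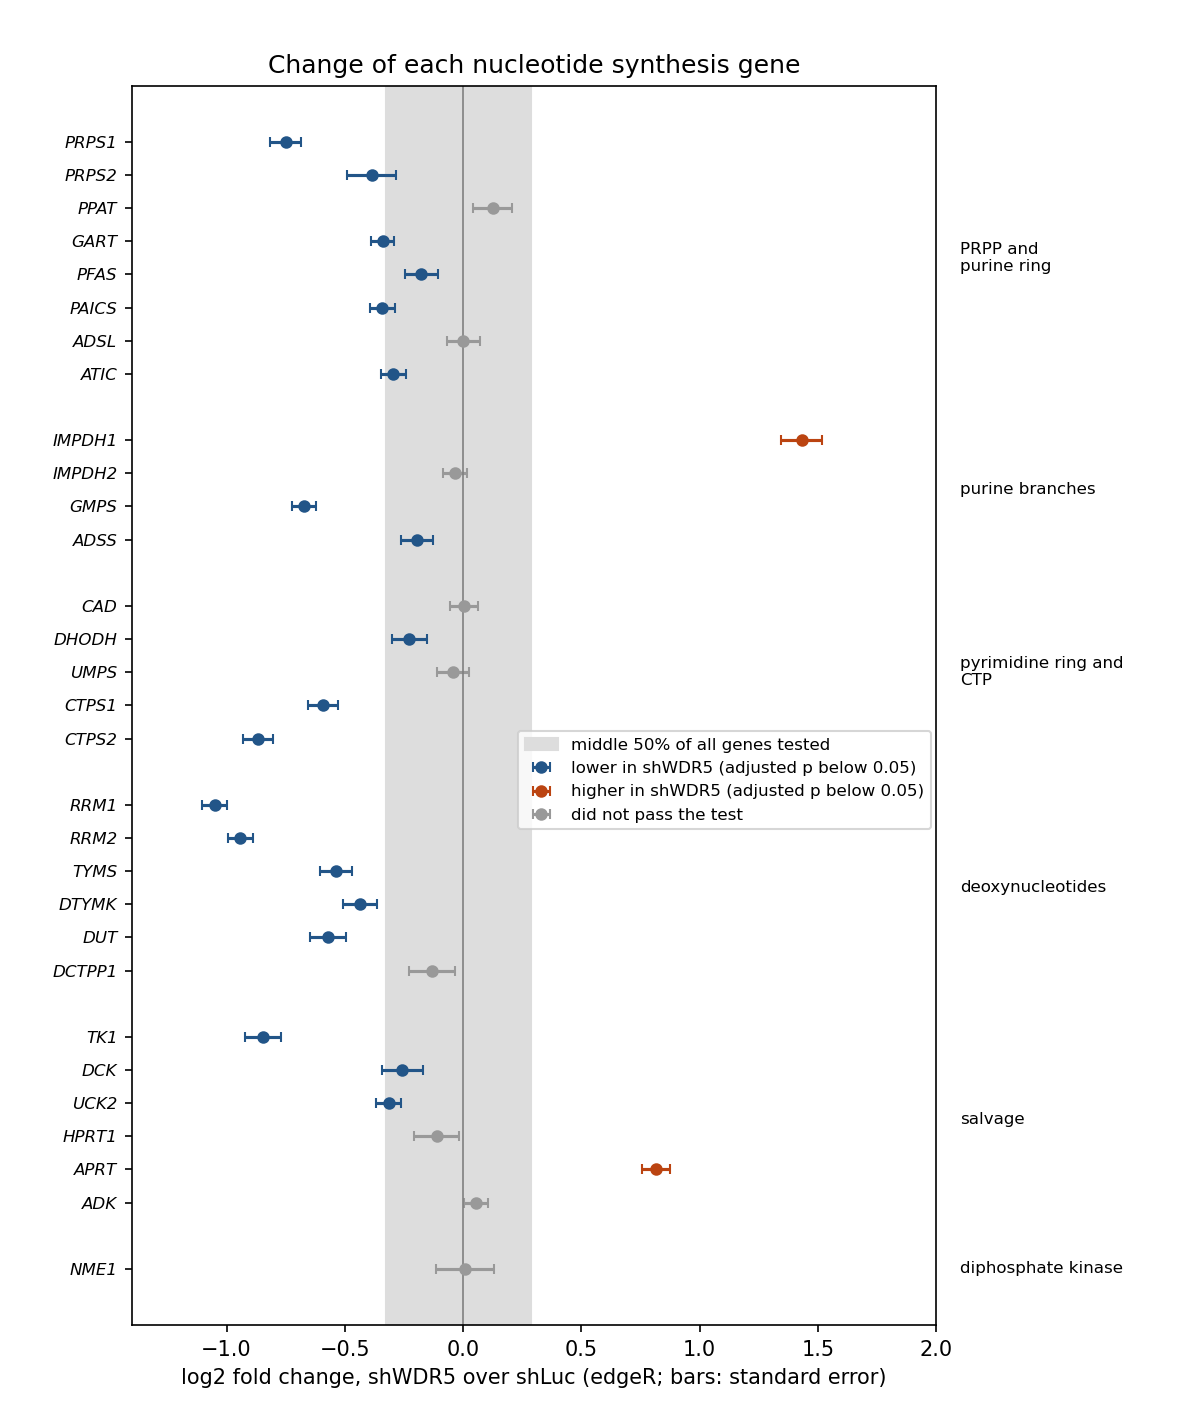
The log2 fold change of each gene, shWDR5 over shLuc (x axis; bars show the standard error of the edgeR fit, 3 libraries per group), coloured by the outcome of the test, with the middle 50% of all genes tested shaded. RRM1 lies farthest left at -1.05 and IMPDH1 farthest right at 1.43.

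The deoxynucleotide enzymes had the lowest median of the pathway's arms. Of 6 genes 5 fell (29.9% of all genes), none rose (26.6% of all genes), and their median log2 fold change was -0.55. RRM1 (chr11:4115924-4160106, hg19), the large subunit of ribonucleotide reductase, measured 164, 159.9 and 170.2 CPM in shLuc and 78.4, 82.0 and 78.2 CPM in shWDR5 (log2 fold change -1.05 ± 0.05 (SE), adjusted p = 2.52e-07). RRM2 (chr2:10262695-10271546, hg19), the small subunit made in S phase, measured 277, 289 and 283 CPM in shLuc and 141, 153 and 147 CPM in shWDR5 (log2 fold change -0.94 ± 0.05 (SE), adjusted p = 4.32e-07). Every shWDR5 library was below every shLuc library for both, by more than the spread of either group. Both subunits fell to a similar degree, and the RRM2 to RRM1 ratio per kilobase was 1.60 ± 0.07 in shLuc and 1.72 ± 0.04 in shWDR5 (SD, n = 3). Only 614 of the 16117 genes tested had a lower fold change than RRM1 and 786 a lower one than RRM2. Their promoters are shown because they belong to the members that fell most. They are the RefSeq windows (GRCh38.p14) from 250 bases before to 50 bases after the start, 5′ to 3′ on the gene's strand, at chr11:4094435-4094734 (plus strand) and chr2:10122489-10122788 (plus strand), with each CCAAT in capitals. That of RRM2 holds CCAAT 3 times, beginning 123, 93 and 66 bases before the start, and that of RRM1 holds it once, 28 bases before the start.
RRM1: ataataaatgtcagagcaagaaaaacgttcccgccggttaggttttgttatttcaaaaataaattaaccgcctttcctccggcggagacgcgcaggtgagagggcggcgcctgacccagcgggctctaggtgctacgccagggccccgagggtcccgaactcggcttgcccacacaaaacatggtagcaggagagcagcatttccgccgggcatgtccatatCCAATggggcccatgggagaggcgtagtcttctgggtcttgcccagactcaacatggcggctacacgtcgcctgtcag
RRM2: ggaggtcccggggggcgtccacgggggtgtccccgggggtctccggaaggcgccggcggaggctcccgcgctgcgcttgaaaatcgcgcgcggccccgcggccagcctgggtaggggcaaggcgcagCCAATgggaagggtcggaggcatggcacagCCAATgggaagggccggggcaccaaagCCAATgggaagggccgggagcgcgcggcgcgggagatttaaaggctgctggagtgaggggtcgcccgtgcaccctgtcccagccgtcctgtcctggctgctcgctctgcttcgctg

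The enzymes that make and guard dTTP also fell. TYMS, thymidylate synthase, which methylates dUMP to dTMP, measured 32.5, 30.4 and 31.4 CPM in shLuc and 20.8, 22.9 and 21.2 CPM in shWDR5 (log2 fold change -0.54 ± 0.07 (SE), adjusted p = 6.69e-05). DTYMK, which phosphorylates dTMP, measured 47.2, 42.4 and 42.0 CPM against 34.7, 32.0 and 30.7 CPM (log2 fold change -0.44 ± 0.07 (SE), adjusted p = 0.000496). DUT, which hydrolyses dUTP and so keeps uracil out of DNA, measured 121, 103 and 126 CPM against 74.2, 80.8 and 81.0 CPM (log2 fold change -0.57 ± 0.08 (SE), adjusted p = 0.000127). In none of the 3 did the groups overlap, although DUT was spread more widely in shLuc. DCTPP1, a pyrophosphatase that clears modified dCTP, measured 53.2, 44.9 and 45.9 CPM against 48.6, 44.7 and 38.0 CPM and did not pass the test (log2 fold change -0.13 ± 0.10 (SE), adjusted p = 0.27), with overlapping groups. For TYMS 62.8% of exon bases are shared with ENOSF1 and TYMSOS on the opposite strand, and whether counting used strand is not given in the sources used here, so its value is uncertain.

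In the purine pathway most steps to IMP fell modestly. Of the 8 genes that make PRPP and the purine ring, 6 fell and none rose, against 29.9% and 26.6% of all genes. Their median log2 fold change was -0.32. PRPS1, a synthetase of PRPP, fell most in this arm, from 49.5, 48.3 and 50.04 CPM in shLuc to 30.8, 30.1 and 27.0 CPM in shWDR5 (log2 fold change -0.75 ± 0.07 (SE), adjusted p = 6.47e-06). Its paralogue PRPS2 measured 48.5, 60.0 and 52.8 CPM against 34.8, 44.8 and 43.6 CPM (log2 fold change -0.39 ± 0.10 (SE), adjusted p = 0.00932). The PRPS2 groups did not overlap, but without shLuc replicate 2 the log2 fold change was -0.31 and the adjusted p 0.0516. GART, which carries out several of the ring-building reactions in a single protein, varied little within either group, at 187, 186 and 188 CPM in shLuc and 149, 149 and 145 CPM in shWDR5 (log2 fold change -0.34 ± 0.05 (SE), adjusted p = 0.000162). ATIC, which closes the ring to IMP, measured 131, 125 and 129 CPM against 104, 107 and 104 CPM (log2 fold change -0.29 ± 0.05 (SE), adjusted p = 0.00065).

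PFAS, the glutamine-using synthase in the middle of the pathway, measured 38.2, 38.2 and 34.4 CPM against 33.4, 33.8 and 31.0 CPM and passed the test narrowly (log2 fold change -0.18 ± 0.07 (SE), adjusted p = 0.0483). That call was lost on leaving out shLuc replicate 1 (log2 fold change -0.14, adjusted p = 0.151), shLuc replicate 2 (-0.16, adjusted p = 0.121), shWDR5 replicate 1 (-0.19, adjusted p = 0.0630), shWDR5 replicate 2 (-0.20, adjusted p = 0.0739) or shWDR5 replicate 3 (-0.14, adjusted p = 0.166), with DESeq2's size factors in edgeR (-0.16, adjusted p = 0.0717) and in DESeq2 (-0.17, adjusted p = 0.0942). ADSL, which acts both on the ring and on the way from IMP to AMP, measured 72.8, 66.0 and 65.9 CPM against 70.0, 71.8 and 63.1 CPM, with overlapping groups (log2 fold change 0.00 ± 0.07 (SE), adjusted p = 0.990).

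PPAT and PAICS lie head to head on chromosome 4, with starts 113 bases apart in the hg19 gene models of the count table, and only PAICS passed the test. PPAT (chr4:57259529-57301802), the amidotransferase of the committed step, measured 35.9, 39.5 and 42.0 CPM in shLuc and 38.4, 43.8 and 45.7 CPM in shWDR5 (log2 fold change 0.13 ± 0.08 (SE), adjusted p = 0.223). PAICS (chr4:57301915-57327534), which adds carbon dioxide and aspartate to the ring, measured 291, 306 and 310.2 CPM in shLuc and 230.3, 249 and 237 CPM in shWDR5 (log2 fold change -0.34 ± 0.05 (SE), adjusted p = 0.000337). The groups overlapped for PPAT and were apart for PAICS. The PAICS to PPAT ratio per kilobase, which does not depend on library scaling, was 7.77 to 8.55 in shLuc and 5.44 to 6.31 in shWDR5, so the ratio was lower in each shWDR5 library. The window before PPAT is shown because annotated starts of both genes lie in it. In GRCh38 it covers chr4:56435566-56435865 (printed on the minus strand, RefSeq GRCh38.p14), and 3 of the 7 PAICS starts in GENCODE release 29 lie in it, 126, 134 and 137 bases before the PPAT start on the other strand. The E-box CACGTG, in capitals, begins 182 bases before the PPAT start.
PPAT: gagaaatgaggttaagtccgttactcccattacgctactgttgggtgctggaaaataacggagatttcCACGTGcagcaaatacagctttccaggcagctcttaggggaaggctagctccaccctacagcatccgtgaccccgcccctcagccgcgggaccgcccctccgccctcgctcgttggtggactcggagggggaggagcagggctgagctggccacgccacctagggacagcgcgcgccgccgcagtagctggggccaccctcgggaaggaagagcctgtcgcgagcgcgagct

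The branch from IMP to the guanine and adenine nucleotides gave both the strongest rise and a clear fall. IMPDH1 and IMPDH2 encode the 2 forms of IMP dehydrogenase, which sets the rate of GMP synthesis. IMPDH1 (chr7:128032331-128050041, hg19) rose from 42.5, 38.6 and 35.1 CPM in shLuc to 115, 97.7 and 101 CPM in shWDR5, a 2.70-fold ratio of the means (log2 fold change 1.43 ± 0.09 (SE), adjusted p = 5.78e-07). All 3 shWDR5 libraries were above all shLuc libraries, and 467 of the genes tested had a higher fold change. IMPDH2, the more abundant form, measured 218, 212 and 204 CPM against 209, 209 and 201 CPM with overlapping groups (log2 fold change -0.04 ± 0.05 (SE), adjusted p = 0.577). GMPS (chr3:155588325-155655520, hg19), the next enzyme on the way to GMP, went the other way, from 189.7, 189 and 192 CPM in shLuc to 117, 123 and 118 CPM in shWDR5 (log2 fold change -0.67 ± 0.05 (SE), adjusted p = 2.07e-06). On the adenine side ADSS, adenylosuccinate synthase, measured 103, 107 and 119 CPM against 90.3, 97.9 and 100 CPM (log2 fold change -0.19 ± 0.07 (SE), adjusted p = 0.0322). The ADSS call was lost without shLuc replicate 2 (log2 fold change -0.22, adjusted p = 0.0550), shLuc replicate 3 (-0.13, adjusted p = 0.143), shWDR5 replicate 1 (-0.15, adjusted p = 0.101) or shWDR5 replicate 2 (-0.21, adjusted p = 0.0663).

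In pyrimidine synthesis CAD and UMPS did not pass the test, DHODH fell slightly and both CTP synthetases fell. CAD, which holds the opening activities of the pathway in a single protein, measured 170.3, 161 and 151 CPM in shLuc and 165, 163 and 156 CPM in shWDR5 (log2 fold change 0.00 ± 0.06 (SE), adjusted p = 0.970). UMPS, which completes UMP, measured 68.3, 61.0 and 67.5 CPM against 65.3, 66.5 and 59.6 CPM (log2 fold change -0.04 ± 0.07 (SE), adjusted p = 0.634). For both the groups overlapped. DHODH, the mitochondrial dehydrogenase between them, was low, at 11.2, 10.3 and 10.4 CPM against 9.07, 8.82 and 9.40 CPM (log2 fold change -0.23 ± 0.07 (SE), adjusted p = 0.0234). Its call was lost without shLuc replicate 1 (log2 fold change -0.17, adjusted p = 0.105), without shWDR5 replicate 2 (-0.20, adjusted p = 0.0870) and in DESeq2 (-0.22, adjusted p = 0.0902).

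CTPS1 (chr1:41444971-41478237, hg19), the main CTP synthetase by level, measured 97.0, 92.9 and 95.6 CPM in shLuc and 62.9, 67.6 and 58.8 CPM in shWDR5 (log2 fold change -0.59 ± 0.06 (SE), adjusted p = 2.32e-05). CTPS2 (chrX:16606122-16731102, hg19) measured 24.0, 24.5 and 24.8 CPM in shLuc and 13.5, 13.7 and 12.9 CPM in shWDR5 (log2 fold change -0.87 ± 0.06 (SE), adjusted p = 2.1e-06). Both forms were thus lower in every shWDR5 library than in any shLuc library.

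In the salvage arm 3 of 6 genes were lower (29.9% of all genes) and 1 was higher (26.6% of all genes). TK1 (chr17:76170160-76183285, hg19), the cytosolic thymidine kinase of S phase cells, measured 120.2, 109 and 102 CPM in shLuc and 65.5, 62.7 and 56.5 CPM in shWDR5 (log2 fold change -0.84 ± 0.08 (SE), adjusted p = 8.05e-06). UCK2, a uridine and cytidine kinase, measured 138, 133 and 130.4 CPM against 108.4, 111 and 104 CPM (log2 fold change -0.31 ± 0.05 (SE), adjusted p = 0.000578). DCK, which phosphorylates deoxycytidine, measured 15.7, 18.2 and 17.03 CPM against 13.1, 14.0 and 15.5 CPM (log2 fold change -0.26 ± 0.09 (SE), adjusted p = 0.0262). The DCK call was lost without shLuc replicate 2 (log2 fold change -0.21, adjusted p = 0.103), shLuc replicate 3 (-0.26, adjusted p = 0.0719), shWDR5 replicate 1 (-0.20, adjusted p = 0.0819) or shWDR5 replicate 2 (-0.25, adjusted p = 0.0828).

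APRT (chr16:88875877-88878342, hg19), which turns adenine into AMP, rose from 101, 90.8 and 97.7 CPM in shLuc to 176, 169 and 165 CPM in shWDR5, a 1.76-fold ratio of the means (log2 fold change 0.82 ± 0.06 (SE), adjusted p = 1.75e-06). It became the member with the highest level per kilobase, at 119.6 RPKM in shLuc and 211 RPKM in shWDR5. The other purine base enzyme, HPRT1, which salvages hypoxanthine and guanine, measured 37.4, 43.0 and 40.4 CPM against 32.7, 36.4 and 42.7 CPM with overlapping groups (log2 fold change -0.11 ± 0.10 (SE), adjusted p = 0.351). ADK, adenosine kinase, measured 64.0, 66.1 and 65.9 CPM against 66.8, 68.9 and 67.9 CPM. Its groups did not overlap, yet the difference was small and did not pass the test (log2 fold change 0.05 ± 0.05 (SE), adjusted p = 0.398).

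The promoters of the 2 members that rose are shown for comparison with those of RRM1 and RRM2 (RefSeq GRCh38.p14, 250 bases before to 50 after the start, minus strand, chr7:128409933-128410232 for IMPDH1 and chr16:88811879-88812178 for APRT). Neither window held the E-box CACGTG, the sequence CCAAT or any of the E2F-type words TTTGGCGC, TTTGCCGC, TTTCGCGC and TTTCCCGC on either strand, so no letters are in capitals.
IMPDH1: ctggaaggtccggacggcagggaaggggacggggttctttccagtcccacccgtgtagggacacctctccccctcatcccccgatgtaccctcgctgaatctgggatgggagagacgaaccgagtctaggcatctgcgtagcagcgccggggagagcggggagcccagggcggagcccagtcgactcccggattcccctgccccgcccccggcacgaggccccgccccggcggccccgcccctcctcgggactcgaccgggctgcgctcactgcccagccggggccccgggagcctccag
APRT: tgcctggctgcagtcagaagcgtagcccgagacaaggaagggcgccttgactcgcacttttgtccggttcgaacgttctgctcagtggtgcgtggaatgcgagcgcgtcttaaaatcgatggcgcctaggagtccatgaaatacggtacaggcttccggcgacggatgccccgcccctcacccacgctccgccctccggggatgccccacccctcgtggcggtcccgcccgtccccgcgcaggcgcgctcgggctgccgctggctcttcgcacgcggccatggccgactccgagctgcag

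Promoter windows were matched for 28 of the 30 members, without ADSL and IMPDH2. CACGTG, a palindrome, occurred in 6 of the 28 (21.4%) and in 7.43% of 27305 promoter windows of the same length. The 6 were PPAT, ATIC, DHODH, DCTPP1, DCK and NME1, of which 3 were among the genes that fell. For PAICS the RefSeq window searched was chr4:56410257-56410556, which does not hold the PAICS starts in the PPAT window, so the CACGTG printed above was not counted for PAICS. An E2F-type word occurred in 3 of the 28 (10.7%), namely PRPS2, TYMS and DCK, and in 3.33% of all windows. CCAAT occurred in 10 of the 28 (35.7%) and in 35.7% of all windows. Both strands were searched, no match in a member's window overlapped a match to another of the motifs, and a match is only a description of the window.

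NME1, which exchanges phosphates among nucleoside diphosphates and triphosphates, measured 74.8, 58.4 and 54.7 CPM in shLuc and 69.0, 66.4 and 53.7 CPM in shWDR5. Its groups overlapped and it did not pass the test (log2 fold change 0.01 ± 0.12 (SE), adjusted p = 0.962). In the gene models used, 64.9% of the NME1 exon bases are shared with the readthrough gene NME1-NME2, which had 0 counts in all 6 libraries. The NME1 level is therefore uncertain.

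Summed per kilobase, the arms differed in direction, with the salvage arm higher through APRT. The deoxynucleotide arm measured 275 to 293 RPKM in shLuc and 176 to 187 RPKM in shWDR5. The purine ring arm measured 293 to 296 RPKM in shLuc and 238 to 252 RPKM in shWDR5, and the pyrimidine and CTP arm 67.6 to 71.4 RPKM and 54.1 to 58.5 RPKM. The purine branches measured 254 to 259 RPKM in shLuc and 239.8 to 246 RPKM in shWDR5, where IMPDH1 rose and GMPS fell. The salvage arm was higher in shWDR5, at 325 to 337 RPKM against 272 to 287 RPKM in shLuc, and APRT alone went from 119.6 ± 6.43 to 211 ± 7.11 RPKM (SD, n = 3). That rise of APRT was larger than the rise of the whole arm, so the rest of the arm was lower in sum. Within it TK1 went from 69.3 to 38.6 RPKM. The purine branches fell by 5.04% in the mean, and fell by 8.74% with scaling by library totals only. These sums carry no test, and the groups did not overlap in any arm but that of NME1. Such separation was common, as among all single genes tested 32.4% were lower and 29.9% higher without overlap. A sum is led by its most abundant genes.

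**Figure D3:**
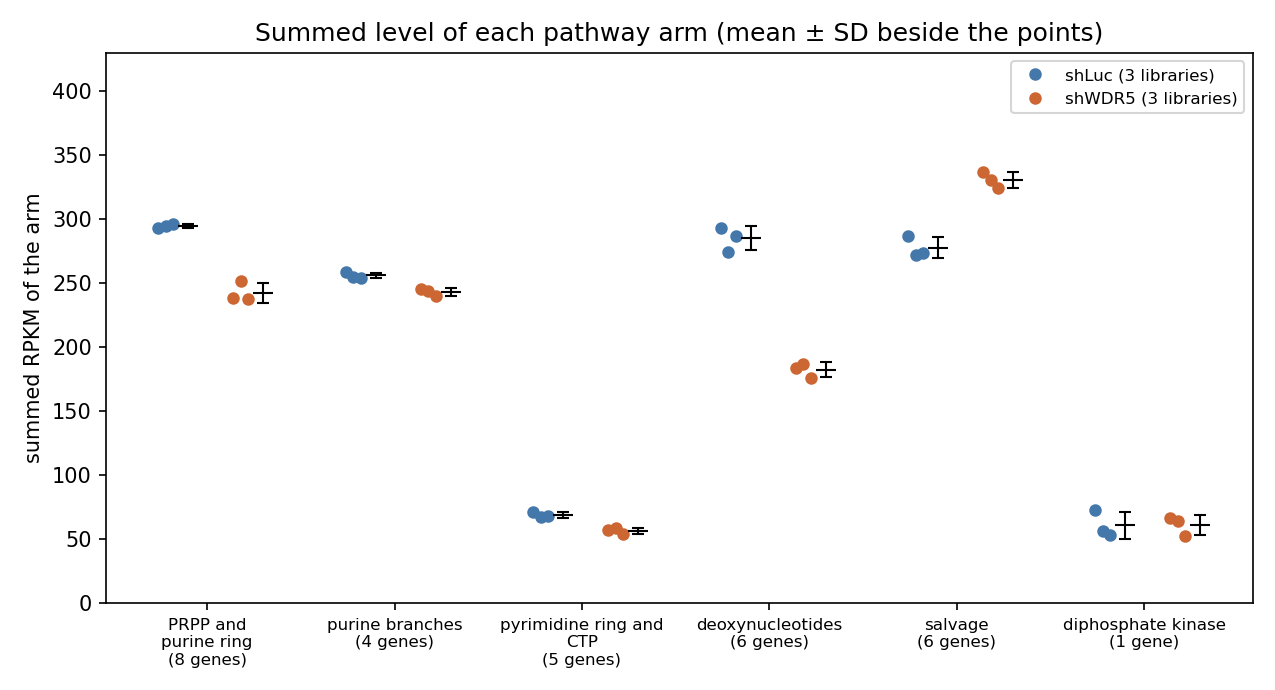
Summed level in RPKM (y axis) of the genes of each arm in each library, 3 libraries per group, with the mean ± SD beside the points. The deoxynucleotide arm lies lower and the salvage arm, in which APRT rose, higher in shWDR5, and the NME1 points overlap.

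Related enzymes were compared as ratios within each library for 7 pairs, with a two-sided exact permutation test of 3 against 3 libraries, for which 0.1 is the smallest p possible. IMPDH1 made up 10.2% ± 0.58 of the summed IMPDH1 and IMPDH2 RPKM in shLuc and 23.9% ± 1.47 in shWDR5 (SD, n = 3). The log2 ratio rose by 1.47 (exact permutation p = 0.1, adjusted over 7 pairs 0.175). RRM2 made up 89.01% ± 1.701 of the RRM2 and RRM2B sum in shLuc and 72.4% ± 3.13 in shWDR5, with a change in log2 ratio of -1.63 (exact permutation p = 0.1, adjusted 0.175). RRM2B, the p53-inducible small subunit used outside S phase, was itself higher, at 41.6, 58.1 and 59.6 CPM in shLuc and 69.6, 87.5 and 99.1 CPM in shWDR5 (log2 fold change 0.69 ± 0.15 (SE), adjusted p = 0.00247). The small subunits of the reductase thus moved in opposite directions.

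TK1 made up 95.02% ± 0.31 of the TK1 and TK2 sum in shLuc and 92.1% ± 0.31 in shWDR5 (SD, n = 3; change in log2 ratio -0.70, exact permutation p = 0.1, adjusted 0.175). TK2, the mitochondrial thymidine kinase, did not itself pass the test (log2 fold change -0.14 ± 0.07 (SE), adjusted p = 0.118). CTPS1 made up 84.7% ± 0.44 and 87.0% ± 0.46 of the CTPS1 and CTPS2 sum (change in log2 ratio 0.27, exact permutation p = 0.1, adjusted 0.175). For these 4 pairs the ratios of the groups did not overlap. They overlapped for PRPS1 and PRPS2 (change -0.36, exact permutation p = 0.2), UCK2 and UCK1 (-0.09, p = 0.2 by the same permutation test) and NME1 and NME2 (-0.11, p = 0.7 by the same permutation test). NME2 itself did not pass the test (log2 fold change 0.13, adjusted p = 0.257). The change of the NME1 to NME2 log2 ratio turned positive without shLuc replicate 1 (0.08) or shWDR5 replicate 3 (0.09). NME1 and NME2 share exons with the readthrough gene, which leaves their ratio uncertain.

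**Figure D4:**
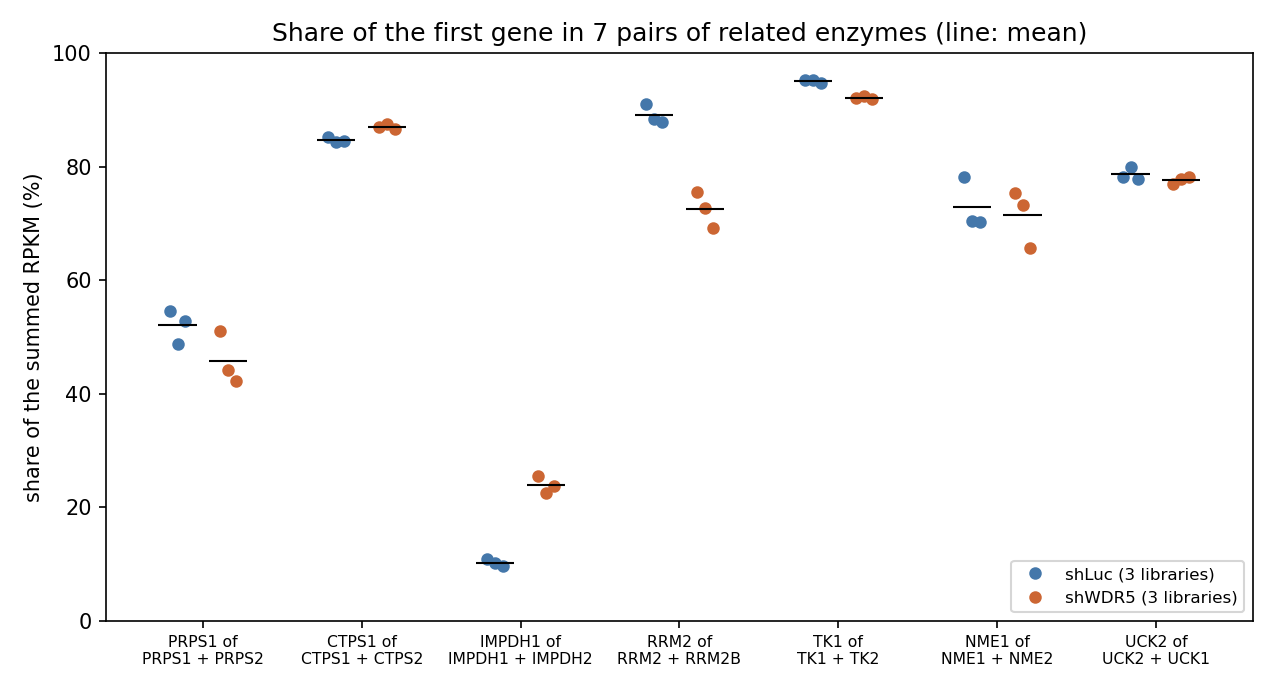
Share of the first gene in the summed RPKM of each of 7 pairs of related enzymes (y axis, percent), with 1 point per library and a line at the mean of each group of 3. The IMPDH1 share rises from 10.2% to 23.9% and the RRM2 share drops from 89.0% to 72.4%, while the PRPS, NME and UCK pairs overlap.

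A second list of 63 other nucleotide metabolism genes (further kinases, nucleotidases, catabolic enzymes and transporters) held genes that moved in either direction. Of the 54 with enough counts to be tested, 20 fell and 17 rose, against 29.9% and 26.6% of all genes, and the median log2 fold change was -0.05. With library totals 21 fell and 12 rose, and without shLuc replicate 2 the counts were 20 and 12. Among those that fell most were GMPR, NT5M, AK5, PNP and ADA. GMPR, which returns GMP to IMP, measured 2.71, 2.81 and 2.65 CPM in shLuc and 0.540, 0.757 and 0.750 CPM in shWDR5 (log2 fold change -1.99 ± 0.15 (SE), adjusted p = 2.54e-06). NT5M, the mitochondrial deoxynucleotidase, measured 1.902, 1.702 and 1.54 CPM against 0.604, 0.651 and 0.221 CPM (log2 fold change -1.77 ± 0.27 (SE), adjusted p = 0.000275). Both were low genes, but their groups did not overlap.

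PNP, the phosphorylase that splits purine nucleosides into base and sugar, measured 159, 148 and 144 CPM against 75.2, 80.5 and 72.1 CPM (log2 fold change -0.99 ± 0.06 (SE), adjusted p = 8.67e-07), and ADA, adenosine deaminase, 9.53, 8.02 and 8.08 CPM against 6.48, 6.30 and 5.21 CPM (log2 fold change -0.51 ± 0.11 (SE), adjusted p = 0.00222). The groups were apart in both. AK5, an adenylate kinase, had 4 to 15 counts per library, and its fall (log2 fold change -1.15 ± 0.34 (SE), adjusted p = 0.0137) was lost without shWDR5 replicate 3 (-0.97, adjusted p = 0.0541) and in DESeq2 (-1.16, adjusted p = 0.12).

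The genes of this list that rose most were ADSSL1, CDA, MTAP, RRM2B, AK4 and TYMP. ADSSL1, the muscle-type adenylosuccinate synthase and paralogue of ADSS, measured 6.40, 5.34 and 6.96 CPM in shLuc and 20.8, 17.3 and 20.5 CPM in shWDR5 (log2 fold change 1.65 ± 0.11 (SE), adjusted p = 1.11e-06), while ADSS itself was lower. AK4, a mitochondrial adenylate kinase, measured 122, 130.0 and 138 CPM against 192, 214 and 199.5 CPM (log2 fold change 0.63 ± 0.06 (SE), adjusted p = 1.63e-05). TYMP, thymidine phosphorylase, which degrades thymidine, measured 15.4, 14.0 and 13.7 CPM against 23.5, 20.8 and 20.7 CPM (log2 fold change 0.59 ± 0.08 (SE), adjusted p = 0.000116). MTAP, the methylthioadenosine phosphorylase that feeds adenine to APRT, was low at 1.13, 1.29 and 1.41 CPM against 2.44, 2.11 and 2.05 CPM (log2 fold change 0.79 ± 0.14 (SE), adjusted p = 0.000812). Its mean level was 0.260 RPKM in shLuc and 0.447 RPKM in shWDR5, below the level of 0.5 RPKM required above. A link of MTAP to the rise of APRT was not tested. CDA, cytidine deaminase, had only 10 to 29 counts per library (log2 fold change 1.05 ± 0.28 (SE), adjusted p = 0.00777). UCK1, a paralogue of UCK2, passed with all libraries (log2 fold change -0.23 ± 0.08 (SE), adjusted p = 0.032) but not without shLuc replicate 1 (-0.17, adjusted p = 0.126), shLuc replicate 3 (-0.22, adjusted p = 0.0861), shWDR5 replicate 2 (-0.24, adjusted p = 0.0663) or shWDR5 replicate 3 (-0.18, adjusted p = 0.114).

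Genes of S phase and mitosis moved in the same libraries. Of 18 such genes, listed with earlier results of these data known, 16 fell and 1 rose, against 29.9% and 26.6% of all genes. The median log2 fold change of the 18 was -0.70. Their summed level was 672 to 677 RPKM in shLuc and 396 to 414 RPKM in shWDR5. MCM5, a subunit of the replicative helicase, measured 103, 105 and 97.99 CPM against 44.4, 44.3 and 41.2 CPM (log2 fold change -1.24 ± 0.06 (SE), adjusted p = 1.8e-07), and MKI67, a marker of cycling cells, 522, 540.1 and 495 CPM against 244, 245 and 238 CPM (log2 fold change -1.10 ± 0.05 (SE), adjusted p = 1.8e-07). E2F1, an activator of S phase genes, measured 14.2, 13.7 and 12.5 CPM against 9.67, 10.1 and 9.29 CPM (log2 fold change -0.47 ± 0.08 (SE), adjusted p = 0.000462). The exception that rose was CCNE1, the G1/S cyclin E1 (log2 fold change 0.48 ± 0.09 (SE), adjusted p = 0.000987). The part of these genes in the result on nucleotide synthesis was not tested.

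MYC, a transcription factor known to activate many nucleotide synthesis genes, was higher in shWDR5, at 160.5, 164 and 170.2 CPM in shLuc and 219, 219 and 210.1 CPM in shWDR5 (log2 fold change 0.39 ± 0.05 (SE), adjusted p = 9.88e-05). The groups did not overlap. Its RNA moved in the opposite direction to that of 19 of the 30 members and in the same direction as that of IMPDH1 and APRT. The part of MYC in these changes was not tested.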

How the data were processed

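Poly-A RNA libraries of shLuc and shWDR5 MCF10DCIS cells (3 each) were analysed from the count table the authors deposited, which holds raw read counts per gene with gene lengths on hg19/GRCh37. The submitters' processing notes name TopHat2 2.1.0, featureCounts and edgeR 3.2.2. The deposited table of the authors' own comparison was not used. Counts were filtered with filterByExpr (16117 of 26334 genes), scaled with TMM and tested with edgeR 4.0.16 (R 4.3.3; group only) by the quasi-likelihood test, with Benjamini-Hochberg adjustment and calls below 0.05. Standard errors were taken as the coefficient over the square root of F. CPM and RPKM were computed here from the TMM-scaled counts. Pair ratios used a pseudocount of 0.5 counts and scipy 1.17.1. Depth was 38218108 to 57640167 counts per library. Alternatives were DESeq2 1.42.0, its size factors, library totals, no filter, a replicate block, a fold threshold and leaving out each library. On simulated data with 200 changed genes of 15970, between 75.5% and 80.0% of changes of 0.5 and between 87.5% and 96.0% of changes of 1 (log2) were recovered, and 4.02% of calls were false. In the real data 56.5% of the genes tested were called, and several called members changed by less than 0.5. The simulated shares therefore do not carry over to the real calls. The members and lists were chosen with earlier results of these data known. All members were named, and of the 63 other nucleotide metabolism genes the 6 called with the largest change in each direction, with the paralogues of members. Results for some genes are not reported here. Replicates differed by more than sampling noise (chi-square per degree of freedom 7.20 to 18.4).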

Additional observations from a re-analysis of the deposited data

How the results depend on the processing

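The 19 members called lower became 15 to 18 on leaving out any library, 18 with DESeq2's size factors in edgeR, 17 in DESeq2, and 19 with library totals or without the filter, and 2 members were called higher in each of these. With a log2 fold change of at least 0.6 and RPKM above 0.5 required, 6 members were lower and 2 higher, as were 1688 and 1274 of all genes (4821 and 4291 without it), 4 and 4 of the other nucleotide metabolism genes and 0 proliferation genes higher (1 without it). Whether same-numbered libraries pair was left unresolved. The correlations of their deviations were 0.37, 0.04 and 0.12, and 0.37 was the highest of all pairings. However, shLuc replicate 2 correlated best with shWDR5 replicate 3, at 0.21. The numbers were therefore not taken as pairs. With the replicate block 20 members were lower (DCTPP1 added) and 3 higher (PPAT added), and 5511 and 4901 of all genes. The signs of the members near 0, none of which passed the test in any of these fits, depended on the setting. With library totals the log2 fold change was -0.056 for ADSL, -0.054 for CAD, -0.0022 for ADK and -0.049 for NME1, and without the filter it was -0.0088 for ADSL, -0.0069 for CAD and -0.0021 for NME1. Leaving out a library gave -0.036 to 0.065 for ADSL, -0.063 to 0.00066 for IMPDH2, -0.043 to 0.062 for CAD, -0.10 to 0.0050 for UMPS and -0.085 to 0.17 for NME1, and -0.25 to 0.088 for the NME1 to NME2 ratio. With library totals, an alternative chosen after seeing the data, the summed RPKM of the purine branches fell by 8.74% (with TMM it fell by 5.04%) and that of salvage rose by 14.4% (19.1% with TMM). Of 330 member values under the alternatives 287 kept direction and call, 19 lost the call, 2 gained it and 22 changed sign. The cause was not tested.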
